A study of Mus musculus with 2 samples.

Results

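The annexins Anxa1, Anxa2, Anxa3, Anxa5 and Anxa6 and the S100 genes S100a4, S100a6, S100a10 and S100a11 were followed through single cells of the postnatal limb tendon of the mouse. These 9 genes, of 27998 genes counted in each library, were listed by symbol, though with earlier results of these data known. Each symbol named 1 row. The study sequenced cells of forelimb and hindlimb tendons at P7 (postnatal day 7), with a single library for wild-type and a single one for mutant pups, and cells of 2 pups were pooled in each. In the mutant pups a floxed Tgfbr2, the type II TGFβ receptor, had been deleted with ScxCre, a Cre recombinase driven by Scleraxis (Scx) that acts in tendon cells, though not in all of them at embryonic stages. The study writes the mutant genotype as Tgfbr2 f/- with ScxCre, a floxed allele beside a minus allele that all cells carry. Mutant cells of other types may thus also differ from wild-type cells in Tgfbr2. Pups of both libraries also carried the reporters ScxGFP and RosaT (the Ai14 tdTomato Cre reporter). The genotype label of the control library reads wild-type whereas its description reads Het, so that library may come from heterozygous pups, and it is called wild-type here as in its title. Levels are given as UPM, the UMIs (unique molecular identifiers, 1 per captured RNA molecule) of a gene per 1000000 UMIs, summed over the cells of a class. Tgfbr2 was counted at 48.6 UPM in cells with high Scx of the mutant library and at 29.9 UPM in those of the wild-type library, and counts from the 3′ end of the transcript do not check the deletion.

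Annexins are cytosolic proteins that attach to acidic phospholipids of membranes when calcium is present, and they take part in membrane repair, vesicle traffic and the control of inflammation. S100 proteins are small calcium sensors of the EF-hand family that work as dimers, and several of them bind the amino-terminal tail of an annexin: S100a10 forms a membrane complex with Anxa2, and S100a11 binds Anxa1. In tendon, Scx marks the tenocytes that build the collagen fibres, while the sheath and the tissue between fascicles hold fibroblasts that express genes such as Ly6a and Cd34.

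Cells were sorted into classes by counts alone. Scx-high cells had at least 30 Scx UMIs per 10000, counts that also hold transcripts of the ScxGFP transgene (1148 of 2364 wild-type and 217 of 2592 mutant cells). Scx-low fibroblasts had fewer Scx UMIs and at least 5 UMIs over Ly6a, Cd34, Dpt, Lum and Col3a1 (704 and 1808 cells). The study described ScxGFP-negative, RosaT-positive cells of mutant tendons as dedifferentiated tenocytes. It proposes that mutant tendon cells keeping ScxGFP are newly recruited, since some had weak or no RosaT. Mutant Scx-low and Scx-high cells may thus differ in origin from the wild-type cells of the same class, which was not tested here. Mural cells, the pericytes and smooth muscle of vessels (147 and 85 cells), and immune cells (195 and 195 cells) were set apart first by at least 5 UMIs over 7 mural or 11 immune genes. The libraries held 9451606 (wild-type) and 8250248 UMIs (mutant). The median depth was 4289.5 and 4275 UMIs per cell in Scx-high cells of the wild-type and mutant library, 3589 and 2881 in Scx-low fibroblasts, 4692 and 3040 in mural cells, and 2417 and 1704 in immune cells. Every interval in parentheses is an exact 95% interval that covers counting error only. A single library stood for each condition, so replicate error could not be measured, no test was run, and an effect of the batch cannot be told apart from that of the genotype.

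The classes held their defining markers, but mutant Scx-high cells also held fibroblast transcripts. Tnmd, a tenocyte membrane protein, was at 7462 UPM in Scx-high and 978 in Scx-low cells of the wild-type library, and at 5732 and 1045 in the mutant library. Over the 8 fibroblast markers the median Scx-high cell held 2 UMIs in the wild-type library and 26 in the mutant one. Of the 8, 7 were higher in mutant Scx-high cells, among them Lum (94.6 and 682 UPM in wild-type and mutant), and Dpp4 was lower (50.2 and 3.97). The same 7 were also higher in mutant immune cells, with Lum at 13.1 and 287 and Col3a1 at 173 and 921. In mural cells Lum (302 and 192) and Col3a1 (4143 and 2437) were lower in the mutant library. A rise was thus not particular to Scx-high cells, but its size differed between classes and genes, and its cause was not tested. Each of the 11 immune markers was at or under 4.96 UPM in Scx-high and Scx-low cells of both libraries. Scx itself was counted in other classes, at 1443 UPM in mural and 2082 in immune cells of the wild-type library and at 642 and 81.4 in the mutant library. Within 20 to 45 Scx UMIs per 10000, close to the cut, lay 29 cells under and 25 over it in the wild-type library, and 25 and 27 in the mutant library.

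All 9 genes were matched by gene ID to GENCODE M21 on GRCm38, the same assembly as the mm10 build of the files, and all 9 are protein-coding. Anxa1 lies on chromosome 19 from 20373428 to 20390944 (minus strand), Anxa2 on chromosome 9 from 69453620 to 69491795 (plus), Anxa3 on chromosome 5 from 96793339 to 96845966 (plus), Anxa5 on chromosome 3 from 36448923 to 36475894 (minus) and Anxa6 on chromosome 11 from 54979108 to 55033445 (minus). The S100 genes share chromosome 3 and the plus strand. S100a4 (90603771 to 90606045) and S100a6 (90612882 to 90624181) have starts 9.11 kb apart, with S100a5 between them. S100a11 (93520488 to 93526287) and S100a10 (93555080 to 93564643) lie in a second group. S100a4 overlaps the gene model Gm42674 on its own strand, so reads that could belong to either gene make the S100a4 count less certain. Anxa1 and Anxa2 overlap non-coding genes on the opposite strand. All these overlapping genes were counted in rows of their own.

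RefSeq promoters of GRCm38.p6 were found for 6 of the 9 genes, and not for Anxa3, Anxa6 and S100a10. The RefSeq start can differ from the GENCODE start given above, and that of Anxa2 lies further into the gene. A stretch of 180 bases, from 250 to 71 before the RefSeq start, is given for Anxa2, S100a11 and S100a4. Each of them was at least 2-fold higher in wild-type Scx-low than Scx-high cells, and S100a4 was also lower in mutant than wild-type Scx-high cells. Capitals mark the letters of an AP-1 site (TGANTCA) or of a GC box (GGGCGG) on either strand, which do not overlap here.
Anxa2, chr9:69453433-69453612, plus strand: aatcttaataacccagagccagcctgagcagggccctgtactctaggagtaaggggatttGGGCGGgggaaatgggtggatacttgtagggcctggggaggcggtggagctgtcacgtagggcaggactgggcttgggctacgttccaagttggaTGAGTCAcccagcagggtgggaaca
S100a11, chr3:93520246-93520425, plus strand: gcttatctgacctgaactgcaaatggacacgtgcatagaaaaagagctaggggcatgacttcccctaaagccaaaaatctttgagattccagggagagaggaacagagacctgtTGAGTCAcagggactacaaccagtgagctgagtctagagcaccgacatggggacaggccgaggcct
S100a4, chr3:90603520-90603699, plus strand: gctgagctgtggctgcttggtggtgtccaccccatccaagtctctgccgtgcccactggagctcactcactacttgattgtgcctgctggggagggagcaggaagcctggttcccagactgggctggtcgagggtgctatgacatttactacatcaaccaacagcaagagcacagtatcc
An AP-1 match stood 95 bases before the RefSeq start in Anxa2 and 136 bases before it in S100a11, and the windows of Anxa1, Anxa5, S100a4 and S100a6 held none. Those without a match were likewise higher in wild-type Scx-low than Scx-high cells, with ratios of 7.41, 2.62, 2.25 and 3.02 in that order. The Anxa1 window overlaps a GENCODE exon of Anxa1 itself and the Anxa5 window an exon of 1810062G17Rik, so these windows are not promoter sequence alone. A role of AP-1 was not tested. Of 32851 promoters, 4.93% held an AP-1 match in the same 180 bases and 21.1% a GC box, which Anxa2 held once.

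In the library labelled wild-type, 8 of the 9 genes were at least 2-fold higher in Scx-low fibroblasts than in Scx-high cells and none was at least 2-fold lower. Among the 4328 genes averaging 0.1 UMI per cell or more, 16.6% were at least 2-fold higher and 4.6% at least 2-fold lower, and the median gene was 0.42 higher on the log2 scale, against a median of 1.58 for the 9 genes. Centred on the median gene, 6 of the 9 were at least 2-fold higher, with S100a4 at 1.69 and Anxa5 at 1.96. Anxa3 averaged 0.037 UMI per cell in wild-type Scx-high and 0.65 in wild-type Scx-low cells. It passed the 0.1 cut only through Scx-low cells, so the cut favoured its call as higher. In the library labelled mutant, 0 of 9 were 2-fold higher and 1, Anxa1, was 2-fold lower, beside 6.17% and 5.17% of 4472 genes; the median of all genes was 0.03 and of the 9 genes -0.15. Wild-type ratios of Scx-low to Scx-high cells ran from 0.773 for Anxa6 to 19.7 for Anxa3, with 2.25 (2.13 to 2.39) for S100a4, 2.62 (2.50 to 2.74) for Anxa5, 2.95 for S100a11, 3.02 for S100a6 and 7.41 (6.79 to 8.11) for Anxa1. The mutant ratios were 1.92 (1.71 to 2.17) for S100a4, 1.61 (1.54 to 1.68) for S100a6, 1.16 (1.09 to 1.23) for S100a10 and under 1 for Anxa2, Anxa5 and S100a11, with intervals that excluded 1, and 0.472 (0.438 to 0.508) for Anxa1. The mutant ratio turned to 1.22 for Anxa2 when Scx-high cells with fibroblast genes were left out, and to 1.04 for S100a11 without Scx-low cells that held Tnmd. S100a4, S100a6 and S100a10 were higher in Scx-low fibroblasts in both libraries.

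**Figure D1:**
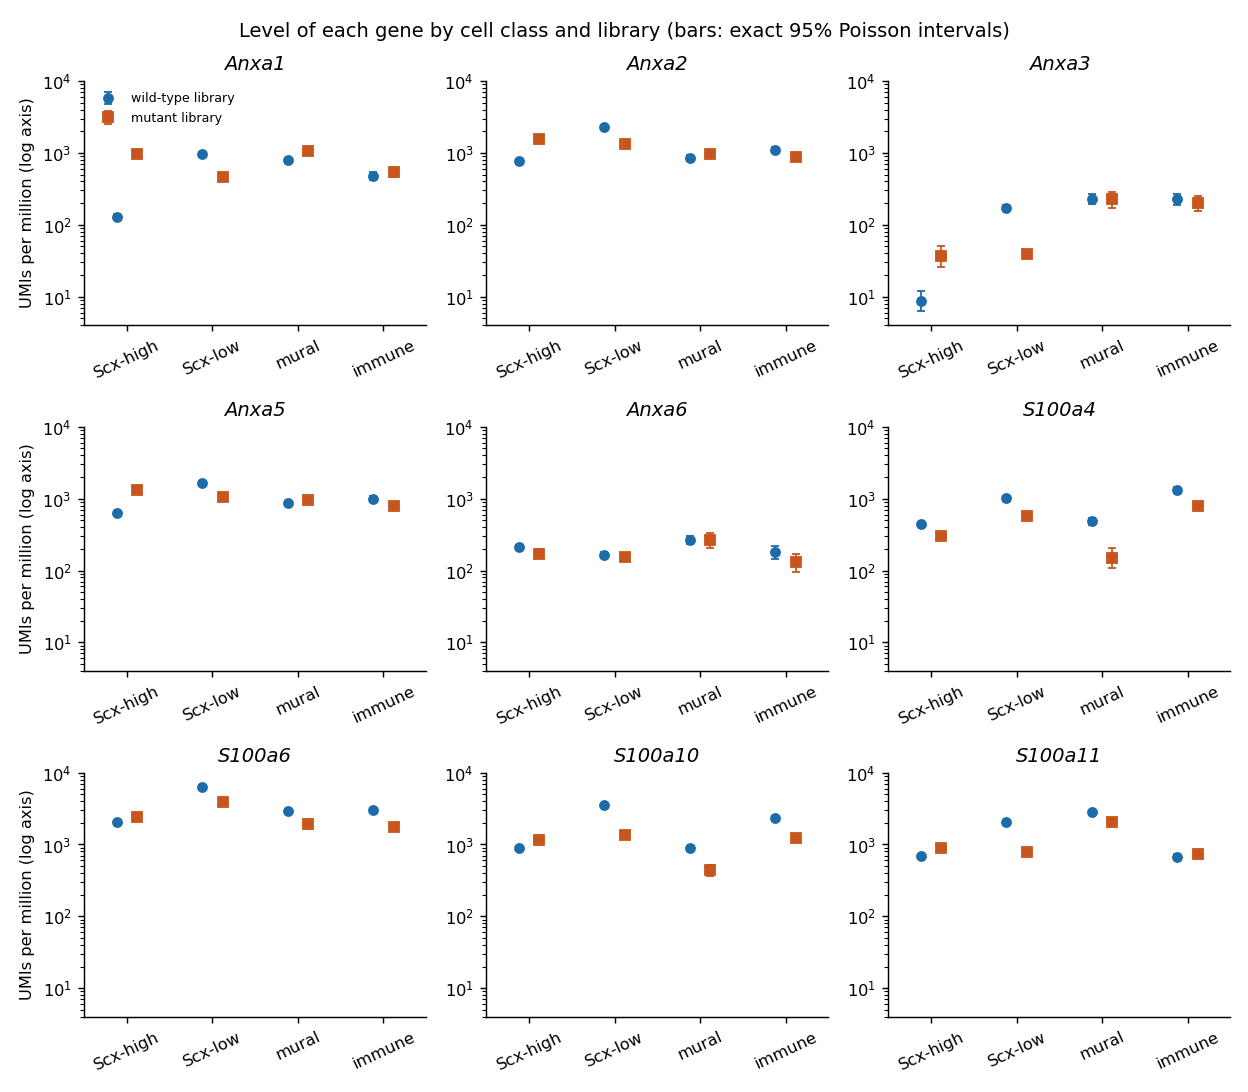
Level of each of the 9 genes (UPM, log axis) in Scx-high, Scx-low, mural and immune cells of the library labelled wild-type (circles) and of that labelled mutant (squares), with exact 95% Poisson intervals that the symbols often hide. Anxa1 shows the widest gap between libraries in Scx-high cells, 129 against 979.6.

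Anxa1, which resolves inflammation through formyl peptide receptors, had the largest ratio between the libraries in Scx-high cells. Its level in Scx-high cells was 129 UPM (119 to 140.0) in the wild-type library and 979.6 (919 to 1043) in the mutant one, a 7.57-fold difference (6.84 to 8.39). In Scx-low fibroblasts the order was opposite, with 959 in the wild-type library and 462 in the mutant one, 2.08-fold lower (1.97 to 2.19). The mutant Scx-low level of 462 was still above the 129 of wild-type Scx-high cells. The wild-type order of levels was Scx-low, mural (792), immune (481) and Scx-high cells, with no overlap of neighbouring intervals. In the mutant library mural cells (1051) and Scx-high cells had overlapping intervals at the top, and immune cells (539) and Scx-low fibroblasts overlapped at the bottom.

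The libraries differed in the share of cells with Anxa1 as well as in its level. After thinning each cell to 1000 UMIs, 10% of 1140 wild-type Scx-high cells (8.32% to 11.9%) and 47.6% of 212 mutant ones (40.8% to 54.6%) had an Anxa1 UMI, and without thinning the shares were 27.8% and 77.9%. Among Scx-low fibroblasts the thinned shares were 44.1% and 29.7%. The 10% of wild-type Scx-high cells with most Anxa1 held 65.5% of its UMIs in that class. Cells with over 50% haemoglobin UMIs, taken as background at a median depth of 5682 and 4451 UMIs, had an Anxa1 UMI in 5.68% of 88 wild-type and 1.27% of 79 mutant cells before thinning, under the shares of Scx-high cells in both libraries. Haemoglobin made up a median of 97.3% and 98.1% of their UMIs, so few UMIs of other genes were sampled. Background shares here and below, above all the thinned ones, may therefore be too low.

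**Figure D2:**
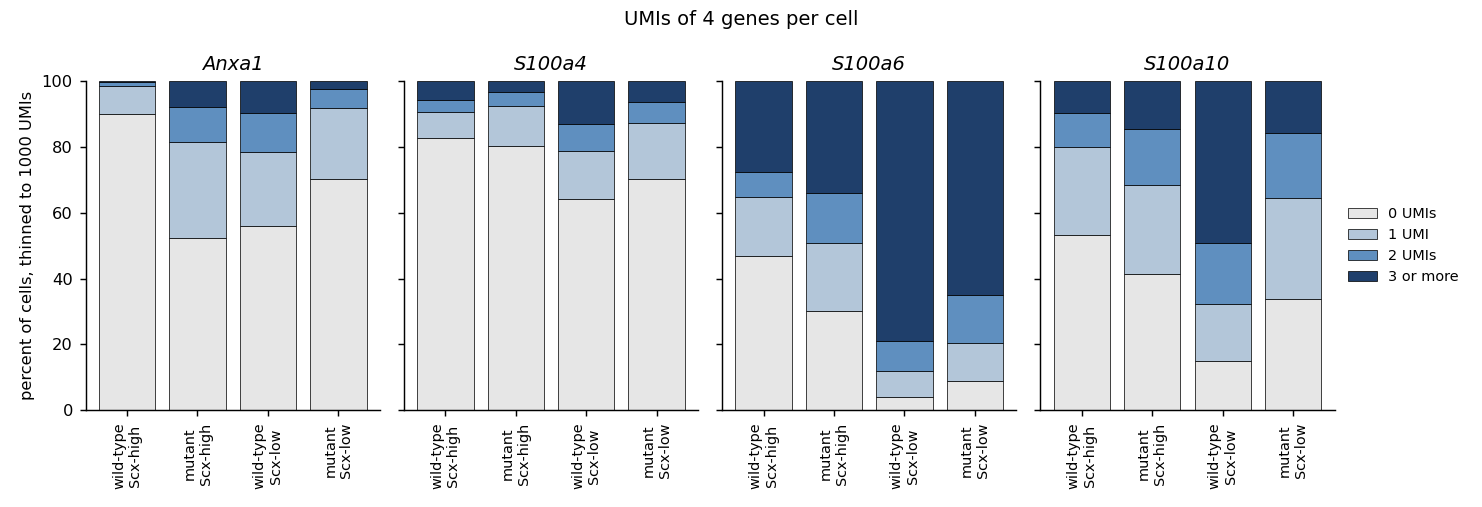
Percent of cells with 0, 1, 2 or at least 3 UMIs of Anxa1, S100a4, S100a6 and S100a10 after thinning each cell to 1000 UMIs, for Scx-high and Scx-low cells of both libraries. For Anxa1, 90% of wild-type and 52.4% of mutant Scx-high cells held none.

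Anxa2, which bundles actin at membranes and is the partner of S100a10, was at 762 UPM in Scx-high and 2277 in Scx-low cells of the wild-type library, 2.99-fold higher (2.87 to 3.12). In the mutant library the same classes were at 1567 and 1347. Scx-high cells of the mutant library thus exceeded those of the wild-type library 2.06-fold (1.94 to 2.18), and Scx-low fibroblasts were 1.69-fold lower (1.63 to 1.75). Mural and immune levels were 850.1 and 1109.5 in the wild-type library and 969.6 and 877 in the mutant one, and the mural interval of the ratio, 0.984 to 1.32, included no difference.

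Anxa5, which binds exposed phosphatidylserine, followed Anxa2 closely. Its level was 635 UPM in Scx-high and 1662 in Scx-low cells of the wild-type library, and 1324 and 1070.0 in the mutant library. The mutant level was 2.09-fold higher in Scx-high cells (1.95 to 2.22) and 1.55-fold lower in Scx-low fibroblasts (1.49 to 1.61). Mural cells were at 859.7 and 966 and immune cells at 987 and 781.

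Anxa3, a phospholipase inhibitor in the test tube, was scarce. The level in Scx-high cells rested on 42 UMIs in the wild-type (8.79 UPM) and 37 in the mutant library (36.7 UPM), and in Scx-low fibroblasts it was 173 and 39.6. An Anxa3 UMI was found in 2.96% of wild-type Scx-high cells (2.06% to 4.11%), within the background interval of 0.0288% to 6.17% in haemoglobin-rich cells, so this level was not distinguishable from background. Wild-type Scx-low fibroblasts exceeded Scx-high cells 19.7-fold (14.4 to 27.7). Between libraries Anxa3 was 4.38-fold lower in mutant Scx-low fibroblasts (3.72 to 5.16), and mural (230.2 and 225) and immune levels (225 and 198) had ratios whose intervals included 1.

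Anxa6, a membrane scaffold with a doubled annexin core, varied less between classes. Its levels in Scx-high, Scx-low, mural and immune cells were 213, 164, 267 and 180.2 UPM in the wild-type library and 172, 155, 265 and 129.7 in the mutant library. It was the only member that was not higher in wild-type Scx-low than Scx-high cells, with a ratio of 0.773 (0.69 to 0.866). In Scx-low fibroblasts the ratio of mutant to wild-type was 0.941 (0.838 to 1.06), an interval that includes 1.

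S100a10, the light chain of the Anxa2 complex that binds plasminogen at the cell surface, had levels of 887 and 3547 UPM in wild-type Scx-high and Scx-low cells, a 3.998-fold difference (3.86 to 4.15). The mutant classes stood at 1163 and 1344. Scx-low fibroblasts were 2.64-fold lower in the mutant library (2.56 to 2.72), and the share of thinned cells with a UMI was 85.0% of 700 wild-type and 66.2% of 1782 mutant cells, above a background of 2.27% and 1.30% in haemoglobin-rich cells. Mural cells held 888 and 439 and immune cells 2349 and 1230.7 in the wild-type and mutant library.

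S100a11, the partner of Anxa1, was at 686 in Scx-high and 2024 UPM in Scx-low cells of the wild-type library and at 890.3 and 797 in the mutant library. Scx-low fibroblasts of the mutant library were 2.54-fold lower (2.44 to 2.64) and Scx-high cells were 1.30-fold higher (1.204 to 1.40). Mural cells had the highest level in both libraries, 2819 and 2083, while immune cells held 670.2 and 740.0.

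S100a6, also called calcyclin, was at 2060 UPM in Scx-high and 6227 in Scx-low cells of the wild-type library, and at 2404 and 3867 in the mutant library. A UMI was found in 96.0% of thinned wild-type and 91.2% of thinned mutant Scx-low fibroblasts, against 53.2% and 69.8% of Scx-high cells. The background in haemoglobin-rich cells was 3.41% and 6.49% after thinning, and 20.5% and 11.39% before it. The mutant level was 1.61-fold lower in Scx-low fibroblasts (1.58 to 1.64). In Scx-high cells the mutant level was 1.17-fold higher (1.12 to 1.22), a direction that turned to a ratio of 0.937 when ratios were centred on the median gene.

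S100a4, known as fibroblast-specific protein and as a partner of non-muscle myosin, was lower in the mutant library in all 4 classes taken whole. Levels in Scx-high, Scx-low, mural and immune cells were 447, 1007, 482 and 1340 UPM in the wild-type library and 299, 575, 151 and 801 in the mutant library. It was concentrated in few cells: the 10% of wild-type Scx-high cells with most S100a4 held 76.2% of its UMIs, and up to 53 UMIs in 1 cell. Of thinned Scx-high cells 17.5% (15.3% to 19.8%) of the wild-type and 19.8% (14.7% to 25.8%) of the mutant library had a UMI. The background before thinning was 2.27% and 2.53% of haemoglobin-rich cells, under the unthinned 32.7% and 38.2% of Scx-high cells. The thinned intervals overlapped, while the level had a ratio of 0.669 (0.591 to 0.755). Among Scx-high cells with under 5 UMIs over Ly6a, Cd34, Dpt, Lum and Col3a1 the ratio was 0.705 (0.435 to 1.08), which includes 1. In mural cells with 10 or more mural UMIs the levels were 195 UPM (161 to 235, wild-type) and 176 (125 to 241, mutant). These mural intervals overlapped.

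Across Scx-high cells, 4 of the 9 genes were at least 2-fold higher in the mutant library and none at least 2-fold lower, beside 11% and 3.55% of 4427 genes. The 4 genes were Anxa1, Anxa3, Anxa5 and Anxa2; Anxa2 and Anxa5 lay close to the 2-fold line and fell under it in 4 other ways of scaling, weighting or thinning the same cells. The wild-type level of Anxa3 was not distinguishable from background, and its ratio of 4.18 (2.61 to 6.66) was 2.07 (0.241 to 8.05), on 2 mutant UMIs, without Scx-high cells that held fibroblast genes. The median of all genes was 0.32 on the log2 scale, so relative to it the ratios were 6.08 for Anxa1, 1.65 for Anxa2 and 1.67 for Anxa5, and close to 1 for S100a10 (1.05) and S100a11 (1.04). The same wild-type Scx-high cells enter this comparison and that with wild-type Scx-low fibroblasts, so the levels of the members in both are not separate observations. Mutant Scx-high cells may be the cells that the study proposes are newly recruited, so the libraries may not compare like cells here.

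Across Scx-low fibroblasts, 0 of 9 genes were at least 2-fold higher and 4 at least 2-fold lower in the mutant library, namely Anxa3, S100a10, S100a11 and Anxa1, beside 2.55% and 4.18% of 4351 genes. The mutant class may include the cells that the study described as dedifferentiated tenocytes, so the libraries may not compare like cells here. All 9 ratios were under 1 and 8 of 9 intervals excluded 1, with a median of -0.81 on the log2 scale against -0.03 for all genes. Depth differed between these groups, with 3589 and 2881 UMIs in the median cell. The share of cells with a UMI of Dpp4 or of Pi16, a marker of the outer fibroblast layer, was 47.4% for the wild-type and 20.4% for the mutant library. The part of either in the ratios was not tested. Dpp4 was about equal in wild-type Scx-low (50.4 UPM) and Scx-high cells (50.2) and lower in mutant Scx-low cells (7.25), so this share does not measure that layer alone. With the cells that held Pi16 or Dpp4 left out the ratios of mutant to wild-type ranged from 0.279 for Anxa3 to 0.925 for Anxa6, and among those cells alone from 0.388 to 0.831, with all 9 under 1 in both groups. The genes past 2-fold differed, since Anxa1 was 1.53-fold lower among those cells and S100a4 was 2.09-fold lower with them left out. Without Scx-low cells that held Tnmd, Anxa1 was 1.99-fold lower. Anxa3 was the member most tied to these cells, 3.51-fold higher (2.80 to 4.44) with a Pi16 or Dpp4 UMI than without in the wild-type library and 4.88-fold higher (3.71 to 6.44) in the mutant library. The study made another comparison, of its dedifferentiated cells with wild-type tenocytes, and listed Anxa1 as upregulated. Set against wild-type Scx-high cells, mutant Scx-low levels were higher for all members but Anxa6 (213 and 155 UPM in that order), as for S100a6 (2060 and 3867).

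**Figure D3:**
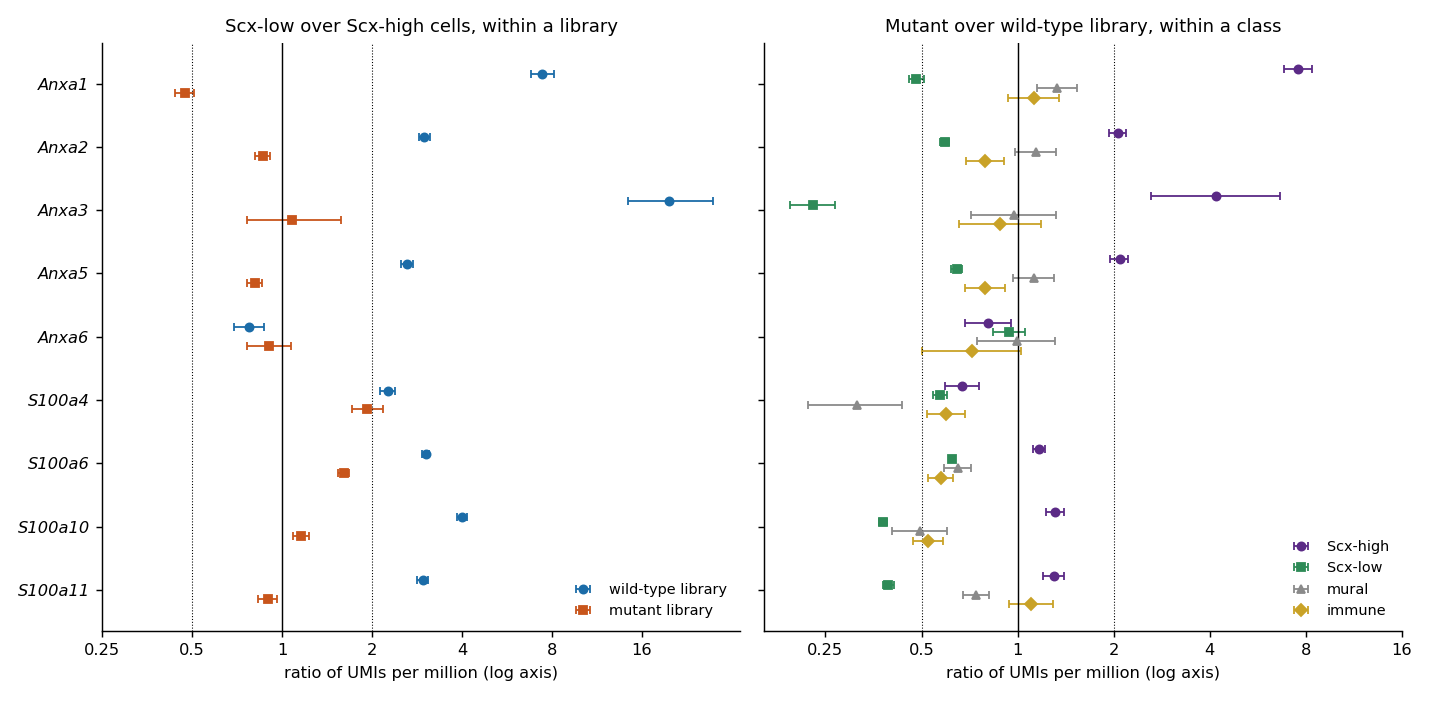
Ratios of UPM (log axis) for the 9 genes with exact 95% intervals: left, Scx-low over Scx-high cells within the wild-type (circles) and mutant library (squares); right, mutant over wild-type within 4 classes. Dotted lines mark 2-fold in both panels. All members but Anxa6 and S100a4 lie right of 1 in Scx-high and left of 1 in Scx-low cells.

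The fibroblast genes counted in mutant Scx-high cells moved with these values. Of Scx-high cells, 84.8% of the wild-type and 18.4% of the mutant library had under 5 UMIs over Ly6a, Cd34, Dpt, Lum and Col3a1. Among those cells, 973 wild-type and 40 mutant, Anxa1 was at 84.5 and 710 UPM, 8.39-fold higher (6.46 to 10.8), Anxa5 was 2.02-fold higher (1.67 to 2.43) and S100a10 1.80-fold higher (1.504 to 2.13), while Anxa2 was 1.69-fold higher (1.39 to 2.03). Among the 175 wild-type and 177 mutant cells with at least 5 such UMIs, Anxa1 was 3.01-fold higher (2.63 to 3.44), Anxa2 1.29-fold (1.19 to 1.40) and Anxa5 1.25-fold higher (1.14 to 1.36). Of these 3 genes Anxa1 alone was past 2-fold there. Anxa3 was 4.72-fold higher (2.07 to 12.6) on 35 mutant and 7 wild-type UMIs. In the same cells S100a6 stood at a ratio of 0.582 (0.552 to 0.614), S100a4 stood at a ratio of 0.2504 (0.219 to 0.286) and S100a10 at 0.679 (0.627 to 0.736). S100a10 was thus higher in the mutant cells with few fibroblast UMIs and lower in those with more. These groups were not alike between the libraries. With under 5 such UMIs the median depth was 4206 UMIs (wild-type) and 2571.5 (mutant), so the mutant cells there were shallower. With at least 5 such UMIs the median cell held 8 (wild-type) and 26 (mutant) of them. The part of depth and of the fibroblast genes in these and in the pooled values was not tested.

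Along the Scx level of Scx-high, Scx-low and unassigned cells, Anxa1 went opposite ways in the libraries. From under 5 through 30, 100 and 300 Scx UMIs per 10000 and above, its wild-type level was 994, 825, 363, 127 and 64.9 UPM, while its mutant level was 443, 561, 779, 721 and 1394. At 300 or more the ratio was 21.5 (17.3 to 27.0) over 63 mutant and 333 wild-type cells, and in the lowest bin it was 0.445 (0.419 to 0.473). S100a10 ran from 3742 to 608 in the wild-type library and from 1367 to 1347 in the mutant library, with a low of 980.7 between, so the wild-type gradient had no counterpart there. In the highest bin the mutant library was also higher for Anxa5 (2.91-fold), Anxa2 (2.69-fold), S100a10 (2.21-fold), S100a6 (1.89-fold) and S100a11 (1.55-fold). Anxa3 was 2.82-fold higher there (1.49 to 5.24) on 19 mutant and 28 wild-type UMIs, and S100a4 had a ratio of 0.596. In the bin from 30 to 100, also of Scx-high cells, the ratio was 0.568 for S100a10, 0.725 for S100a6, 0.844 for S100a11 and 0.376 for S100a4, and 1.37 for Anxa2 and 1.11 (0.966 to 1.27) for Anxa5. The mutant bins of 30 and above held 80, 74 and 63 cells with a median of 16.5 to 30 UMIs over the 5 fibroblast genes, and the wild-type bins of 100 and above a median of 1.

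**Figure D4:**
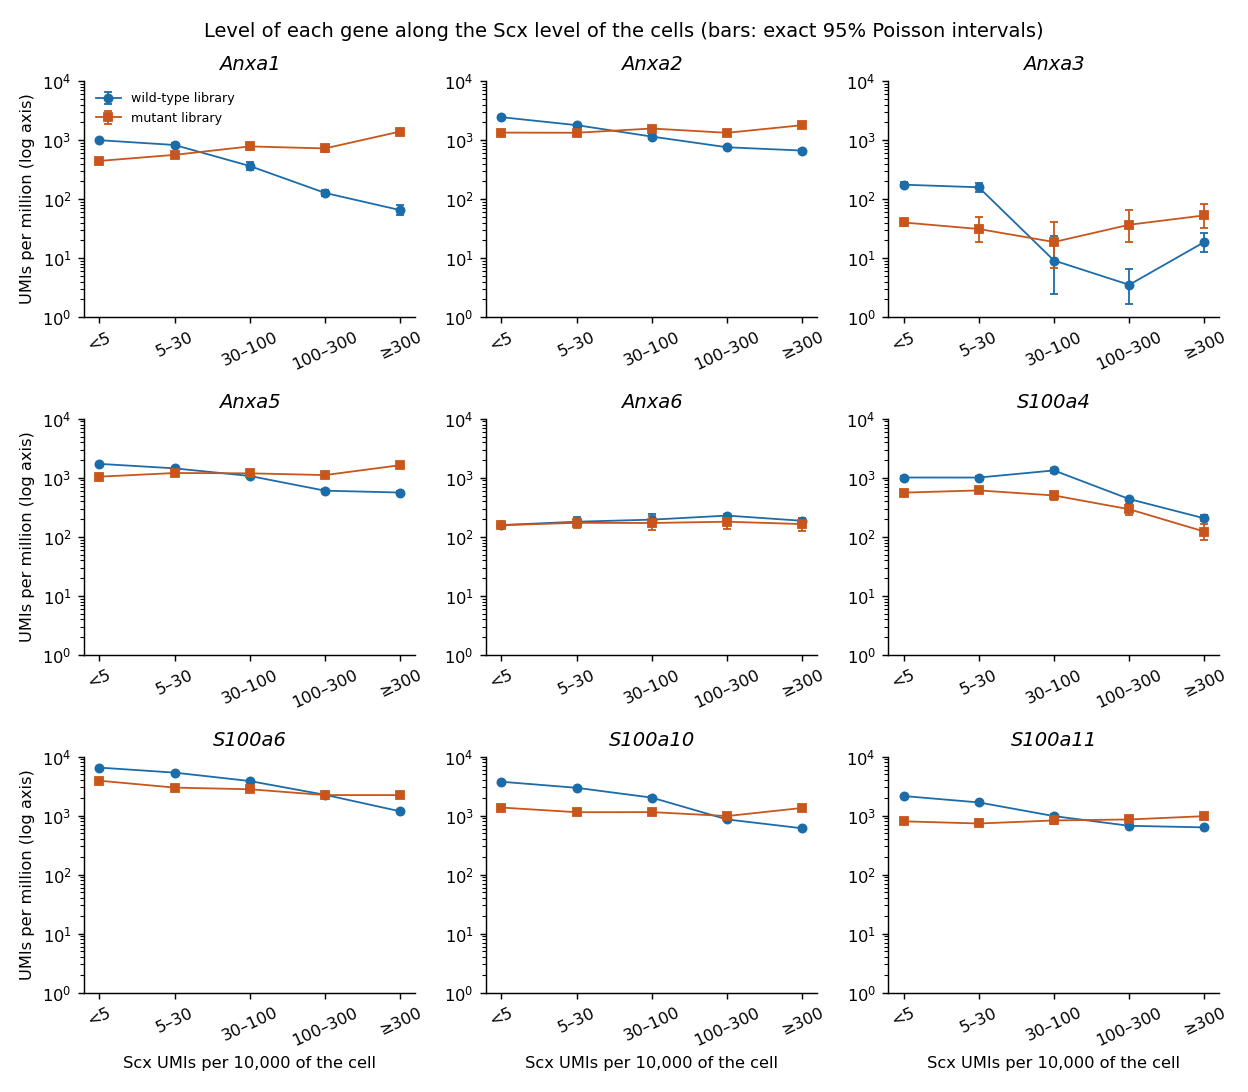
Level of each gene (UPM, log axis) in cells binned by their Scx UMIs per 10000, for the wild-type (circles) and the mutant library (squares), with exact 95% Poisson intervals. The lines for Anxa1 cross, from 994 and 443 in the lowest bin to 64.9 and 1394 in the highest.

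With Scx-high and Scx-low cells pooled, the ratio of mutant to wild-type was between 0.579 for Anxa3 and 1.27 for Anxa1 (1.21 to 1.33), with Anxa2 at 1.06, Anxa5 at 1.11 and S100a6 at 1.03. S100a10 (0.716) and S100a11 (0.696) were lower in the pool as well. Scx-high cells were 48.6% of all cells of the wild-type and 8.37% of the mutant library, and Scx-low fibroblasts were 29.8% and 69.8%.

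In mural cells 0 of 9 genes were at least 2-fold higher and 2 at least 2-fold lower in the mutant library, S100a4 by 3.19-fold (2.30 to 4.52) and S100a10 by 2.02-fold (1.66 to 2.48), beside 7.19% and 3.98% of 5024 genes, whose median was 0.15 higher on the log2 scale. Both depended on 34 wild-type mural cells with 5 to 9 mural UMIs, in which S100a4 was at 1548, S100a10 at 2249 and the fibroblast gene Col3a1 at 10601 UPM, against 17 mutant cells of that range with 2 S100a4 and 7 S100a10 UMIs. In cells with 10 or more mural UMIs S100a4 was at 195 in 113 wild-type and 176 in 68 mutant cells, S100a10 at 522 and 505, and the ratio of S100a6 was 1.22 where it had been 0.651. In immune cells 0 of 9 genes passed 2-fold in either direction, beside 4.35% and 3.48% of 3244 genes. The ratio was lowest for S100a10, 0.524 (0.471 to 0.582), with S100a6 at 0.574 and S100a4 at 0.598. In all, 5 of 9 intervals lay under 1 and none above it, so lower mutant levels were not limited to Scx-low fibroblasts. The immune ratio of Anxa1, 1.12 (0.931 to 1.35), became 0.832 (0.678 to 1.02) without 3 mutant cells that held all 621 mutant immune UMIs of S100a8 and S100a9, which mark neutrophils, and S100a8 and S100a9 had 2 UMIs in the 195 wild-type immune cells.

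Other genes of the same families and their partners were counted from lists set by name. Of 7 other annexins, 3 averaged 0.1 UMI per cell or more. Anxa8 was 17.4-fold higher (13.9 to 22.1) in wild-type Scx-low than Scx-high cells and 12.6-fold higher (9.75 to 16.4) in mutant than wild-type Scx-high cells, yet 3.54-fold lower in mutant Scx-low fibroblasts. Anxa7 was 3.86-fold higher in wild-type Scx-low cells and 2.06-fold higher in mutant Scx-high cells. Of 11 other S100 genes, 4 reached that level in the wild-type comparison; S100a16 (3.20-fold) and S100b (14.3-fold) were at least 2-fold higher in Scx-low cells, and S100a1 was 2.29-fold lower in mutant Scx-high cells. Of 14 partners and receptors, 6 reached it in each of the next comparisons, with Plaur but not Myh9 in the first and Myh9 but not Plaur in the second. In wild-type Scx-low over Scx-high cells 3 were at least 2-fold higher (Ahnak, Plat and Plaur), beside 16.6% of all genes, and in mutant over wild-type Scx-high cells 2 were (Plat and Myh9), beside 11%. Anxa8, S100b, Plat, Plaur and Myh9 averaged under 0.1 UMI per cell in wild-type Scx-high cells. They passed the cut only through the group where they were higher, so the cut favoured their calls as higher. Ahnak, a scaffold bound by the S100a10 and Anxa2 complex, was 3.54-fold higher in wild-type Scx-low than Scx-high cells and 1.68-fold higher in mutant Scx-high cells. Plat, the tissue plasminogen activator that docks on the same complex, was 10.4-fold higher (7.44 to 14.6) in mutant Scx-high cells on 116 and 53 UMIs and 7.04-fold higher (3.79 to 13.7) in mutant mural cells on 39 and 15 UMIs. Myh9, the myosin bound by S100a4, was 3.77-fold higher (2.66 to 5.33) in mutant Scx-high cells on 62 and 78 UMIs.

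The level patterns of some members resembled each other over the 8 values of 4 classes in 2 libraries, which share cells, depth and library and are described without a test. Anxa2 and Anxa5 had Pearson's r of 0.97 and were each other's closest gene among 2107 genes, and S100a4 and S100a10 had r of 0.87. These were the highest of the member pairs, and the lowest was Anxa6 with S100a10 (-0.61). The partner pairs had r of 0.68 (Anxa2 with S100a10) and 0.63 (Anxa1 with S100a11). The 3 genes nearest to Anxa1 were Elovl1, Tubb6 and Nap1l1 (r of 0.97, 0.96 and 0.93), and those nearest to S100a10 were Klf2, Ppp1r14b and Rps23.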

How the data were processed

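Tendon cells pooled from 2 pups per library were released enzymatically from limbs without scraping and sequenced by the authors with 10x Genomics 3′ kits. The deposited UMI counts, raw whole numbers, were made by the authors with Cell Ranger, named as 2.0 in the study's methods and as 1.2.0 in the submitters' processing notes, against mm10. Scx counts include ScxGFP transcripts, as the study states. All barcodes were used.

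Cells were classed by the counts in the order haemoglobin-rich (over 50% of UMIs), marker classes (at least 5 UMIs on exactly 1 list), Scx-high, Scx-low. Cells held from 948 to 14358 UMIs (wild-type) and from 903 to 15968 (mutant). 9 mutant cells with 5 UMIs on several lists and 31 and 74 unassigned cells entered no class. 2 barcodes occurred in both libraries. UMIs were summed per class, and ratios were given with exact conditional (Clopper-Pearson) 95% intervals, levels with Poisson and shares with binomial ones. A gene counted as called past 2-fold. Shares were also taken after thinning to 1000 UMIs (seed 1), leaving out shallower cells (18 wild-type and 53 mutant). Scrublet (expected rate 2%) called 10 and 5 cells as doublets, which stayed in. Python 3.11.15, NumPy 2.4.6, SciPy 1.17.1, scanpy 1.11.5 and matplotlib 3.10.9 were used, and the ratio script was tested on simulated data. All 9 members are named, as are other family genes and partners by a list. The members, the lists, the classes and the comparisons were chosen with earlier results of these data known. Likeness used log2 of UPM plus 10 over genes averaging 0.5 UMI per cell or more. Alternatives covered class thresholds, filters, doublets, scaling, depth and cycling cells, and 5 were added after seeing the data.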

Additional observations from a re-analysis of the deposited data

Results flagged for a closer look

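In 4 genes the libraries differed by at least 1.5-fold in opposite directions between Scx-high cells and Scx-low fibroblasts, and the difference itself was not tested because there is 1 library per condition. The ratio of mutant to wild-type in Scx-high cells divided by that in Scx-low fibroblasts was 15.7 for Anxa1, 3.48 for Anxa2, 18.3 for Anxa3 and 3.24 for Anxa5. It equals the wild-type ratio of Scx-low to Scx-high cells divided by the mutant one, so it is not a separate observation. The same wild-type Scx-low cells likewise enter the comparison with wild-type Scx-high cells and that with mutant Scx-low fibroblasts. S100a6 (1.17 and 0.621), S100a10 (1.31 and 0.379) and S100a11 (1.30 and 0.394) also had ratios on opposite sides of 1, by less than 1.5-fold in Scx-high cells. The value for Anxa3 rests on 42 wild-type and 37 mutant UMIs in Scx-high cells, a wild-type level not distinguishable from background, and its Scx-high ratio was 2.07 (0.241 to 8.05) without cells that held fibroblast genes. Median depth in Scx-low fibroblasts, the median of all genes in Scx-high cells and the fibroblast genes of the Scx-high cells differed between the libraries as well, and their part in these values was not tested.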

How the results depend on the processing

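Of 1080 member ratios under 20 alternatives (15 planned and 5 added after seeing the data), 923 stayed within the counting interval of the reported value and 157 did not. 18 ratios lay on the other side of 1 than reported, for 11 of 54 members and comparisons, and 0 of these had been past 2-fold; S100a6 in Scx-high cells had a ratio of 0.937 with centring on the median gene, and between mutant Scx-low and Scx-high cells Anxa2 had 1.22 without Scx-high cells with fibroblast genes and S100a11 had 1.04 without Tnmd cells. The number of members at least 2-fold higher in mutant Scx-high cells was 2 in place of 4 with a mean over cells, with the 20 most abundant genes left out of the total, with centring on the median gene and with cells thinned to 1000 UMIs. Between Scx-low and Scx-high cells of the mutant library, 1 member was higher with a Scx threshold of 60 or with the Scx threshold applied first and 3 when Scx-high cells with fibroblast genes were left out, in place of 0; 0 were lower in place of 1 in that last setting, with thinning, without cycling cells and without Tnmd cells. In mural cells 0 were lower in place of 2 with at least 10 UMIs over the marker lists and in immune cells 1 was lower in place of 0 with the Scx threshold applied first. The cause was not tested. Of 12 background shares 10 stayed close with a minimum of 0.5 UMI per cell, and shares of cells depend on depth, with 22 of 144 unmoved by other thinning. No paired analysis was possible because each condition has 1 library.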
